A study of Mus musculus with 18 samples.

Results

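Interferon-stimulated genes are genes that cells switch on when they sense interferon or foreign nucleic acid. Here 42 of them, called the members, were followed through germ cell induction with and without Esrrb. The members were picked by gene symbol from a list of known genes, with earlier results of these data known. All 42 were found among the 25909 genes of the deposited table. RNA was sequenced from 18 mouse libraries in 6 groups of 3. SGET stem cells of strain B6CBA/129, WT or Esrrb KO and kept in 2i/L medium, were turned with ActivinA and bFGF into epiblast-like cells (EpiLC), which were collected unsorted. EpiLC were then given BMP4, LIF, SCF, BMP8a and EGF to form primordial germ cell-like cells (PGCLC), which were sorted as SG+ETlow cells after 3 days or at a later time. The later time is given as day 5 in some labels and day 6 in others, and is called late. All 6 groups thus share the reporter line, and both genotypes received the same agents. The KO replicates are libraries of the lines A5, B1 and A2, 1 library of each line at each stage, and the WT replicates are numbered 1 to 3.

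Type I interferons signal through the receptor Ifnar1 and Ifnar2, and interferon gamma through Ifngr1 and Ifngr2. Janus kinases at these receptors activate transcription factors of the STAT family. A complex that holds Stat2 and Irf9 binds the interferon-stimulated response element, and other STAT pairs bind the gamma-activated site. Irf1 and Irf7 pass the signal on, sensors such as Ddx58 and Ifih1 detect viral RNA, and the effectors block viral growth or feed peptides to MHC class I. Pluripotent cells are known for a weak interferon response that matures as they differentiate.

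The depth ran from 3032965 to 5286330 counts per library. Esrrb checked the labels. It stood at 625, 591 and 613 CPM (counts scaled to the library total) in WT and 161, 165 and 90.4 CPM in KO libraries at day 3, and at 597, 606 and 574 CPM in WT and 147, 204 and 129 CPM in KO libraries late. In EpiLC it stood at 32.2, 26.9 and 19.8 CPM in WT, 6.82 CPM in A5 and 4.57 CPM in B1. In the library labelled KO A2 it stood at 38.6 CPM, above every WT library. The Esrrb level of this library thus goes against its KO label, but its chromosomes go with its line name. Its median log2 differences from WT on chromosomes 11 and 16 were -0.46 and -0.42. They were -0.44 and -0.44 in the day 3 A2 library, and -0.48 and -0.48 in the late one. That library also stands apart in markers of other cells. The summed level of 10 trophoblast markers was 1337 CPM in it, against 58.0 to 67.4 CPM in WT EpiLC, and that of 12 mesenchyme markers was 637 CPM, against 55.2 to 63.0 CPM. In PGCLC, 7 germ cell markers summed to 796 to 1122 CPM in day 3 libraries and 632 to 1033 CPM in late ones, against 73.5 to 110 CPM in EpiLC. Within a group, the chi-square of a pair of libraries divided by its degrees of freedom, which is near 1 where reads differ by sampling alone, was 1.11 to 1.80 for WT and 3.88 to 33.6 for KO. Nothing says that WT libraries were separate cultures, so p-values measure only the spread between these libraries, which may be technical. Fewer cells of a type and less RNA per cell cannot be told apart in such bulk samples.

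Some of the members hold, near their start, motifs that interferon signalling is known to use, and a few starts are printed because their genes rose with the rest in late KO cells or, for Oas1h, fell. RefSeq promoter windows (GRCm38.p6, 250 bases before to 50 after a start) were found for 33 of the 42 members, and none for Gbp1, Usp18, Mx1, Mx2, Dhx58, Rtp4, Zbp1, Parp9 and Parp14. Both strands were searched for a response element core (GAAANNGAAA) and a gamma-activated site (TTCNNNGAA). The core was in a window of 15 of 33 members (45.5%), against 3.99% of all 27025 genes with a window, and the gamma-activated site in 9 (27.3%), against 9.55%. By window, the shares over all 32851 windows were 3.44% and 8.3%. Of the members raised in late KO cells, described further on, 8 of 17 with a window held the core and 6 the gamma-activated site. Of the other members 7 of 16 and 3 of 16 did. Raised members such as Dtx3l, Lgals3bp, Xaf1, Psmb9 and Samd9l held neither, so the raised genes printed here are not typical of all. A match is a description of letters, not a bound site. The 150 bases just before a RefSeq start are given 5′ to 3′ on the strand of the gene, with matches to either motif in capitals. Where a gene had several windows, the one with the most matches was taken. Irf1 and Gbp3 each have another window, which holds neither motif.
Irf1, chr11:53769864-53770013, plus strand: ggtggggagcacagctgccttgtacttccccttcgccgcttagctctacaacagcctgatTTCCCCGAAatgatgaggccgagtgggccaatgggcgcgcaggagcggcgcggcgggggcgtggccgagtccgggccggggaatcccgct
Igtp, chr11:58199406-58199555, plus strand: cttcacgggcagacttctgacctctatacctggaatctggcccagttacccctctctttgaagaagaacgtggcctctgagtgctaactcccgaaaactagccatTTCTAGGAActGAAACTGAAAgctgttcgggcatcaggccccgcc
Gbp3, chr3:142559894-142560043, plus strand: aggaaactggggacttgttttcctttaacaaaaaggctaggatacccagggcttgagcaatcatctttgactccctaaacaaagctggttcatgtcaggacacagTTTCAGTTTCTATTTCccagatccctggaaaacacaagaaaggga
Isg15, chr4:156200819-156200968, minus strand: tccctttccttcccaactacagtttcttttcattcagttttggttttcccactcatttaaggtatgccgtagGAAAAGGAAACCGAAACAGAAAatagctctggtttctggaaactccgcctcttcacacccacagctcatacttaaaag
B2m, chr2:122147537-122147686, plus strand: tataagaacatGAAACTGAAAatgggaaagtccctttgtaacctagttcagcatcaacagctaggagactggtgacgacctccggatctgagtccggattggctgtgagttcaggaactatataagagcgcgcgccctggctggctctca
Oas1h, chr5:120861272-120861421, plus strand: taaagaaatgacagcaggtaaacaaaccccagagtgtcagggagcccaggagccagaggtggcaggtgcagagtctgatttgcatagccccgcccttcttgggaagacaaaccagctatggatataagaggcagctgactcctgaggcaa
In the window printed, Irf1 holds a gamma-activated site 90 bases before the start. Igtp holds both motifs, at 45 and 34 bases. The cores of Gbp3, Isg15 and B2m begin 45, 78 and 139 bases before the start, with overlapping copies in Gbp3 (2) and Isg15 (3). Neither motif was found for Oas1h in this stretch or in its whole window.

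In late PGCLC, members as different as the transcription factor Irf1, the sensor Zbp1, guanylate-binding proteins and immunoproteasome subunits were higher in KO than in WT cells. Of the 42 members 35 had enough counts to be tested. By edgeR's quasi-likelihood test with Benjamini-Hochberg adjustment over all 12856 tested genes, 21 of the 35 rose (9.83% of all tested genes did) and 2 fell (7.62%). Their median log2 fold change was 1.75, beside 0.01 for all tested genes. With no filter on low counts, 21 of all 42 members were called higher and 2 lower. Of the called members, Zbp1, Isg15 and Samd9l reached the level of the filter in KO libraries alone, and Oas1h in WT libraries alone. Their place among the 35 thus came from the genotype in which they are high. Every KO library lay above every WT library for 25 of the 35, against 21.3% of tested genes. The summed level of the 42 members was 892, 839 and 851 CPM in WT replicates 1 to 3 and 1770, 1515 and 990 CPM in lines A5, B1 and A2. In what follows, values of a group are CPM in this order.

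**Figure D1:**
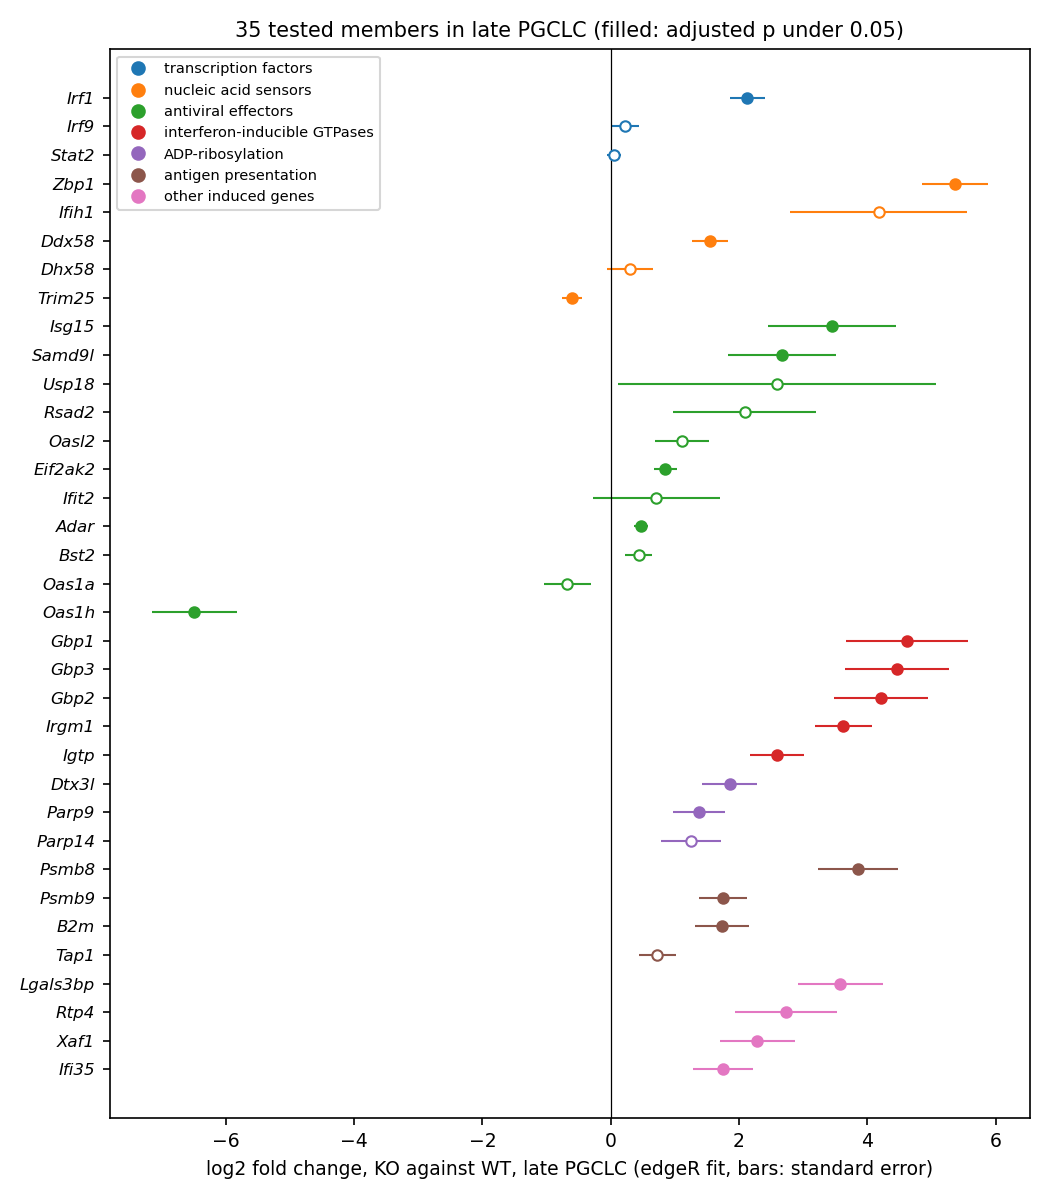
Log2 fold change of KO against WT in late PGCLC (x axis) for the 35 tested members, grouped by role and ordered within a role, with the standard error of the fit as bars and filled points for adjusted p under 0.05. The GTPases lie between 2.60 and 4.62, and Oas1h and Trim25 are the filled points left of 0; the fitted value of Oas1h is no bound, since KO libraries hold 1 count in all.

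Among the transcription factors, Irf1 (ENSMUSG00000018899, chr11:53770014-53778374, GENCODE M21) is known to pass the interferon signal on. Its part in the rise of the other members was not tested. Irf1 stood at 52.8, 50.1 and 51.2 CPM in late WT cells and at 256, 265 and 156 CPM in KO cells. The groups did not overlap, and A2 was the lowest KO library. Irf1 rose by a log2 fold change of 2.13 (SE 0.27, adjusted p = 7.29e-05, edgeR). Irf9 and Stat2, parts of the complex that binds the response element, did not follow Irf1. Stat2 stood at 71.1, 75.3 and 68.9 CPM in WT and 77.2, 74.2 and 71.9 CPM in KO cells, with a log2 fold change of 0.05 (SE 0.11, adjusted p = 0.79). Irf9 stood at 23.4, 20.1 and 19.8 CPM and at 22.4, 26.9 and 24.7 CPM (log2 fold change 0.22, SE 0.23, adjusted p = 0.53). Both overlapped between the genotypes. Irf7 was not tested, with at most 2.73 CPM in any library.

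The nucleic acid sensors all had fitted values above 0, and Trim25, grouped with them, fell. Zbp1 (ENSMUSG00000027514, chr2:173206612-173218923), which binds Z-form nucleic acid and can start cell death, stood at 0.82, 0.41 and 0.24 CPM in late WT cells and 26.3, 29.5 and 9.61 CPM in KO cells. It rose by 5.37 (SE 0.51, adjusted p = 5e-06, edgeR), the largest rise among the called members, with no overlap. Ddx58, which encodes the RNA sensor RIG-I, stood at 24.9, 20.1 and 22.4 CPM in WT and at 69.6, 68.6 and 59.5 CPM in KO cells. All 3 lines were alike here, and it rose by 1.55 (SE 0.29, adjusted p = 0.0016). Ifih1, the related sensor MDA5, held 1 count in WT and 24 in KO libraries, a 24.9-fold ratio (95% counting interval 4.07 to 1026), and did not pass the test (adjusted p = 0.052). Dhx58 did not pass it either (log2 fold change 0.30, SE 0.36). Trim25, the ubiquitin ligase that helps RIG-I, went the other way. It stood at 380, 363 and 369 CPM in WT and at 278, 277 and 180 CPM in KO cells, below every WT library, and fell by 0.60 (SE 0.16, adjusted p = 0.017). This call was lost without KO A2 or without WT replicate 1.

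Of the 11 tested antiviral effectors 4 rose and 1 fell. Eif2ak2, the kinase PKR that stops translation, stood at 18.6, 20.3 and 19.3 CPM in WT and 33.4, 36.7 and 34.95 CPM in KO cells (log2 fold change 0.85, SE 0.18, adjusted p = 0.0041, edgeR). Adar, which edits double-stranded RNA, stood at 61.8, 58.9 and 63.2 CPM in WT and at 86.3, 86.0 and 83.8 CPM in KO cells (0.48, SE 0.11, adjusted p = 0.0066). For both the 3 lines lay close together and clear of WT. The ubiquitin-like modifier Isg15 held 2 counts in WT and 25 in KO libraries, a 13.0-fold ratio (95% counting interval 3.24 to 113). Its call was lost without KO B1 or without any 1 of the WT libraries. Samd9l, a restriction factor, stood at 0.41, 1.22 and 0.24 CPM in WT and at 4.92, 2.84 and 4.91 CPM in KO cells (2.67, SE 0.84, adjusted p = 0.037), a call lost without KO A5, KO A2, WT replicate 1 or WT replicate 3. Bst2 (tetherin), at 82.3, 75.9 and 88.5 CPM in WT and 103, 116 and 114 CPM in KO cells, did not overlap but missed the threshold (adjusted p = 0.17).

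Oas1h was, with Trim25, a member called lower in late KO cells. It belongs to the mouse 2′-5′-oligoadenylate synthetase cluster on chromosome 5 (ENSMUSG00000001168, chr5:120861421-120873506). It was at 0 counts in all EpiLC libraries. WT PGCLC expressed it, at 2.89, 3.59 and 1.82 CPM at day 3 and 7.54, 9.94 and 10.4 CPM late. KO PGCLC held no count at day 3, which is at least 10.9-fold lower, and 1 count against 130 late, a ratio of 0.0080 (95% counting interval 2.01e-04 to 0.045). It was called lower at both times (adjusted p = 0.0028 and 1.31e-04, edgeR). The neighbouring Oas1a showed no such loss, with 9.78, 6.09 and 5.66 CPM in late WT and 3.69, 6.12 and 3.68 CPM in late KO cells (adjusted p = 0.23). The Oas1 genes are related copies, and how the counting treated reads that match several genes is not given, so these values are uncertain.

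The interferon-inducible GTPases, which attack the vacuoles of pathogens, were called higher in all 5 cases. Gbp2 (ENSMUSG00000028270, chr3:142620602-142638008) stood at 1.22, 1.22 and 1.42 CPM in late WT cells and at 45.0, 20.8 and 8.38 CPM in KO cells (4.22, SE 0.74, adjusted p = 0.0012, edgeR). Gbp3 stood at 0.20, 0.81 and 1.18 CPM against 27.0, 17.5 and 5.31 CPM (4.46, SE 0.82), and the row named Gbp1 at 0.20, 0.41 and 0.71 CPM against 21.1, 10.48 and 2.66 CPM (4.62, SE 0.95). In each the KO order was A5, then B1, then A2, and none overlapped with WT. Irgm1 (ENSMUSG00000046879, chr11:48861968-48871683) stood at 4.69, 3.45 and 2.12 CPM in WT and at 58.8, 48.3 and 22.9 CPM in KO cells (3.62, SE 0.44, adjusted p = 4.89e-05). Igtp stood at 2.65, 1.83 and 2.12 CPM against 20.6, 11.1 and 8.99 CPM (2.60, SE 0.42). The Gbp genes are close copies of each other, and the identifier of the Gbp1 row is not in GENCODE M21, so their names are uncertain.

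Dtx3l and Parp9 form a ubiquitin ligase and ADP-ribosyltransferase pair, and Parp14 is a related ADP-ribosyltransferase. Dtx3l stood at 33.4, 21.9 and 18.6 CPM in late WT cells and at 147, 77.1 and 47.4 CPM in KO cells (1.85, SE 0.42, adjusted p = 0.0070, edgeR). Parp9 stood at 37.1, 35.7 and 30.2 CPM against 146, 85.6 and 39.4 CPM (1.38, SE 0.41, adjusted p = 0.029). Parp14 stood at 26.5, 24.8 and 25.0 CPM against 103, 54.6 and 26.6 CPM (1.25, SE 0.46, adjusted p = 0.075). All 3 were highest in A5 and only just above WT in A2 for Parp9 and Parp14. The Parp9 call was lost without KO A5, without KO B1, or without any 1 of the WT libraries. Exons of Parp9 and Dtx3l overlap on opposite strands over 458 bases, as do those of Adar and Chrnb2 (1365), Psmb8 and Gm20496 (498) and Psmb9 and Tap1 (212). The strand setting of the counting is not given, so reads of such pairs may not be told apart.

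Genes of peptide supply to MHC class I were higher too. Psmb8 (ENSMUSG00000024338, chr17:34197721-34201454), an immunoproteasome subunit, stood at 0.82, 1.22 and 0.47 CPM in WT and at 15.0, 19.2 and 4.09 CPM in KO cells (3.85, SE 0.62, adjusted p = 5.66e-04, edgeR). Psmb9 stood at 1.22, 0.81 and 1.89 CPM against 5.90, 4.59 and 2.86 CPM (1.75, SE 0.38, adjusted p = 0.0045). B2m, the light chain of class I, stood at 3.26, 2.84 and 5.66 CPM against 13.8, 9.61 and 15.5 CPM (1.74, SE 0.42, adjusted p = 0.0094), and A2 was its highest KO library. The B2m call was lost without WT replicate 2. Tap1, the peptide transporter, did not pass the test (0.72, SE 0.29, adjusted p = 0.095).

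Of the remaining induced genes, Lgals3bp, a secreted glycoprotein, stood at 2.65, 2.64 and 1.42 CPM in late WT cells and at 40.1, 34.1 and 8.58 CPM in KO cells (3.58, SE 0.66, adjusted p = 0.0016, edgeR). Xaf1, known to favour apoptosis, stood at 4.89, 4.87 and 5.43 CPM against 30.5, 32.3 and 12.1 CPM (2.29, SE 0.58, adjusted p = 0.013). Ifi35 stood at 12.6, 10.96 and 11.6 CPM against 56.3, 48.9 and 14.1 CPM (1.75, SE 0.47, adjusted p = 0.018). Rtp4, a receptor chaperone, stood at 0.20, 0.61 and 0.47 CPM against 4.18, 3.71 and 1.23 CPM (2.73, SE 0.80, adjusted p = 0.030). None overlapped between the genotypes, and A2 was the lowest KO library in each. The call of Xaf1 was lost without WT replicate 1 or 2, and those of Ifi35 and Rtp4 without KO A5, without KO B1, or without any 1 of the WT libraries.

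**Figure D2:**
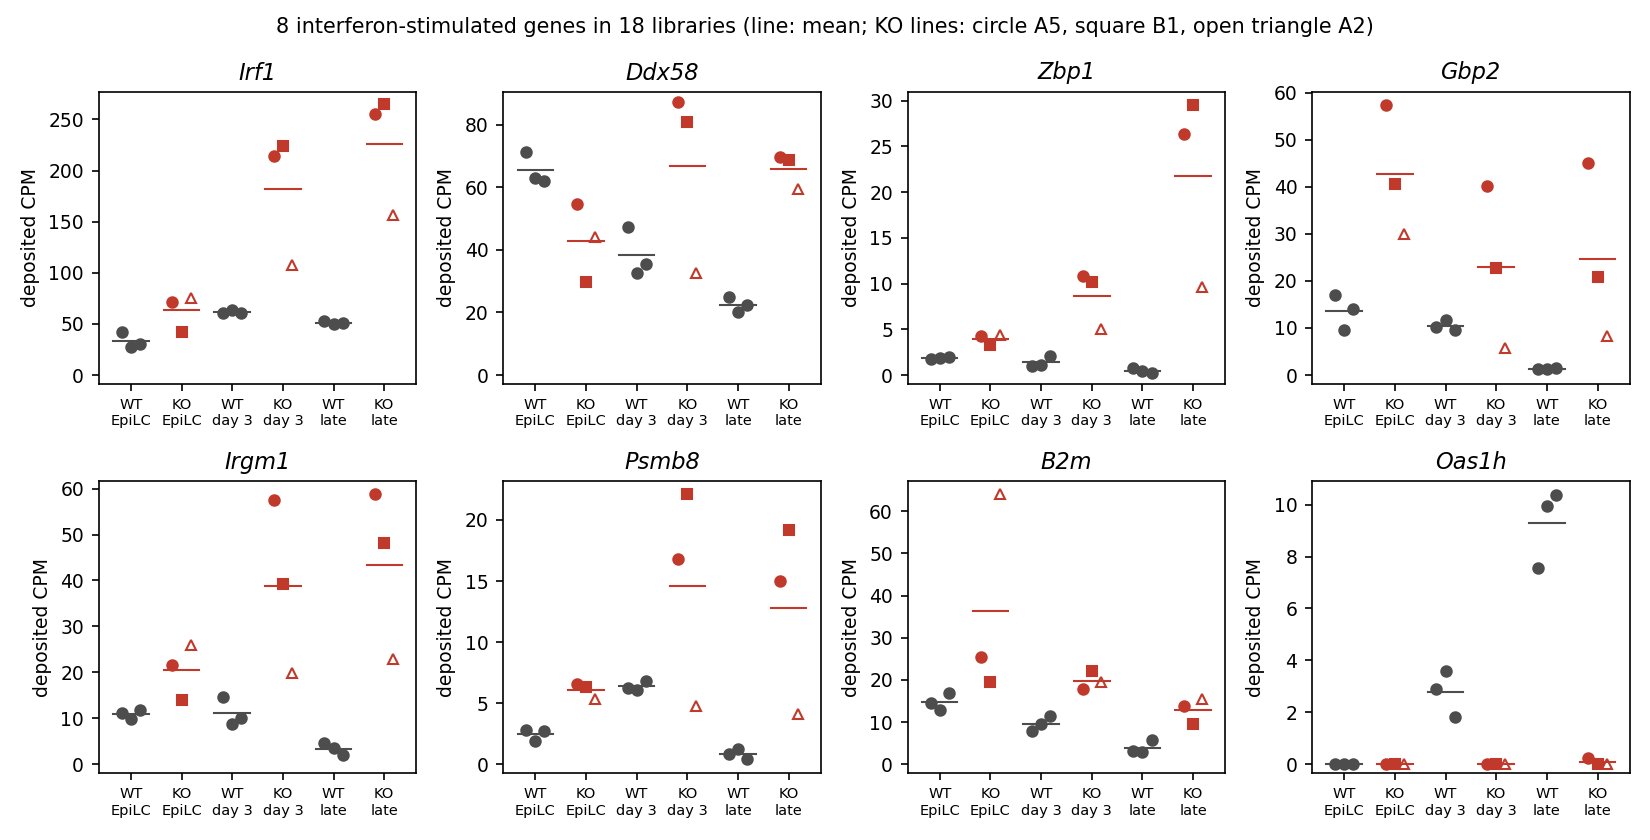
Deposited CPM (y axis) of 8 members in each library of the 6 groups, with the group mean as a line, WT in grey and KO in red, and circle, square and open triangle for lines A5, B1 and A2. Irf1, Zbp1, Gbp2, Irgm1, Psmb8 and B2m are higher in every late KO library than in every late WT library, while Oas1h is seen in WT PGCLC and at 1 count in KO PGCLC.

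At day 3, 7 of the 35 tested members rose in KO cells (5% of all tested genes) and 1 fell (5.19%), with a median log2 fold change of 0.99 beside 0.01 for all tested genes. Every KO library lay above every WT library for 8 of the 35, against 17.2% of tested genes. Irf1 stood at 60.9, 63.2 and 61.0 CPM in WT and at 214, 224 and 107 CPM in KO cells (1.57, SE 0.27, adjusted p = 0.0017, edgeR). Zbp1 stood at 0.96, 1.13 and 2.05 CPM against 10.8, 10.2 and 5.04 CPM (2.64, SE 0.46, adjusted p = 0.0019). These groups did not overlap. Irgm1 stood at 14.7, 8.70 and 10.02 CPM against 57.5, 39.2 and 19.9 CPM (1.83, SE 0.39, adjusted p = 0.0074), and Lgals3bp at 1.44, 3.59 and 2.73 CPM against 27.2, 26.1 and 5.79 CPM (2.89, SE 0.66, adjusted p = 0.011). The Lgals3bp call was lost without WT replicate 1. Psmb9 (1.11, SE 0.34), Ifi35 (1.63, SE 0.49) and Adar (0.38, SE 0.11) were also called. The first and the last of these were lost without any 1 of the 6 libraries, and Ifi35 without any 1 but KO A2. Oas1h was the called fall. The GTPases other than Irgm1 were not called at day 3, and Gbp2 stood at 10.1, 11.7 and 9.56 CPM in WT and 40.1, 22.8 and 5.79 CPM in KO cells, with A2 below WT.

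The lines differed in how many members were raised. Leaving out the 3 libraries of A2, 22 members were called higher and 1 lower at day 3 (20.9% of all tested genes were called either way), and 27 higher and 2 lower late (29.9%). Leaving out all A5 libraries gave 4 higher and 2 lower at day 3 (13.6%) and 18 and 2 late (19.1%). Leaving out all B1 libraries gave 6 and 1 (7.64%), and 17 and 2 (15.5%). At day 3, 30 of the 35 tested members lay above all WT libraries in A5, 25 in B1 and 10 in A2, where 16 lay below all of them. For all tested genes the shares above were 35.7%, 38.3% and 39.3%, and in A2 42.3% lay below, so the members below WT in A2 are near the background. On the log2(CPM + 1) scale the median difference of the members from the WT mean was 1.08 in A5, 0.95 in B1 and -0.11 in A2. Late, 31, 29 and 26 members lay above all WT libraries (40.6%, 39.4% and 40.1% of all tested genes), with median differences of 1.69, 1.30 and 0.65. A2 was the lowest line for 28 of the 35 members at day 3 and for 26 late, but for 11 in EpiLC.

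**Figure D3:**
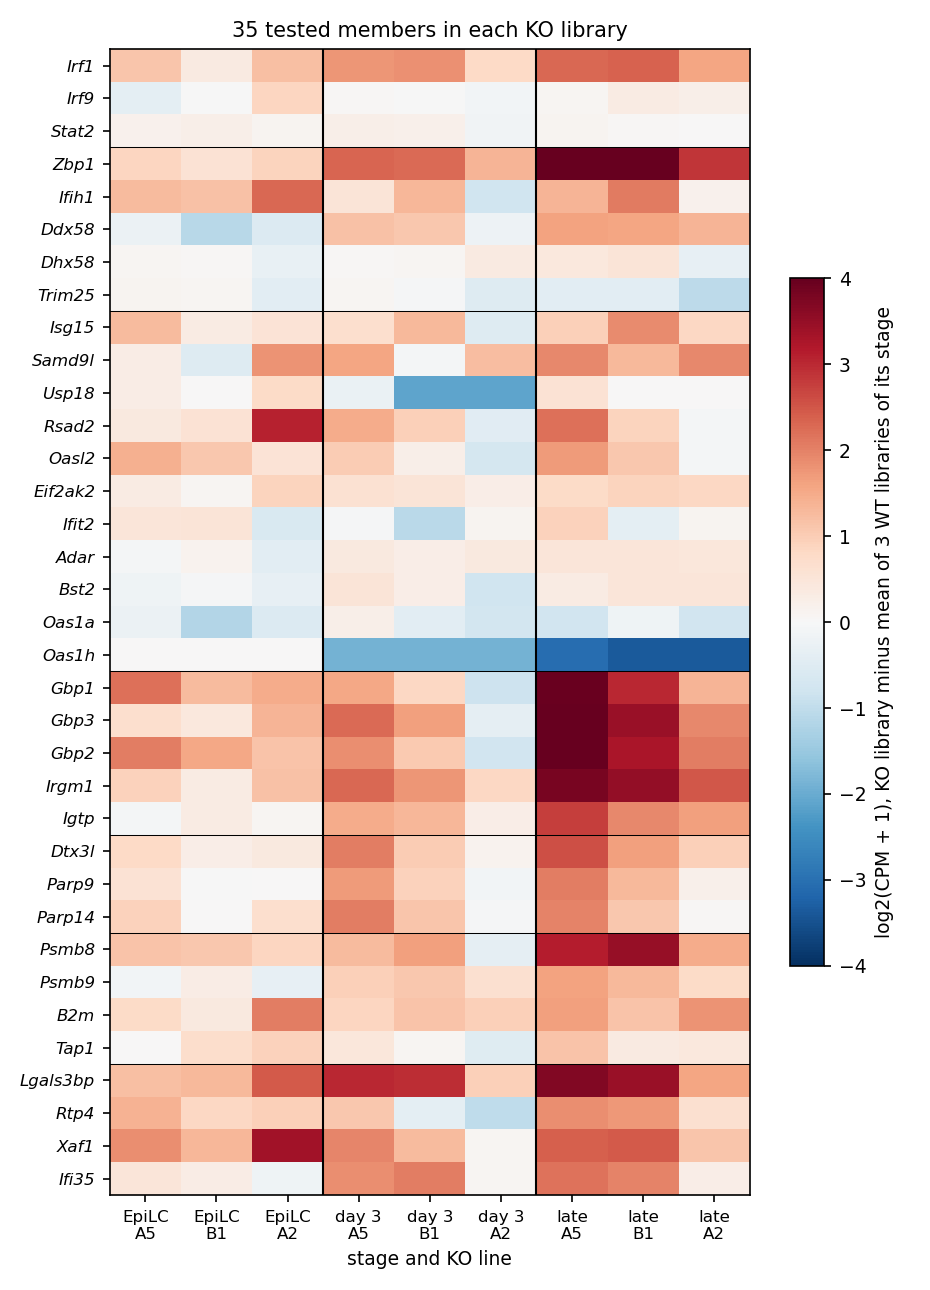
Difference of each KO library from the mean of the 3 WT libraries of its stage, on the log2(CPM + 1) scale (colour, limited to -4 to 4), for the 35 tested members (rows, by role) and the 3 KO lines at 3 stages (columns). A5 and B1 are raised for most rows at day 3 and late, A2 is near or below 0 for many rows at day 3, and Oas1h is below 0 in all PGCLC columns.

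Whole chromosomes also differed between the lines. On chromosome 11, which carries 8 members (Irf1, Dhx58, Trim25, Xaf1, Ifi35, Igtp, Irgm1 and Lgals3bp), the median log2 difference of genes at 5 CPM or more from WT in A2 was -0.46 in EpiLC, -0.44 at day 3 and -0.48 late. On chromosome 16, which carries 6 (Mx1, Mx2, Rtp4, Parp9, Parp14 and Dtx3l), it was -0.44 in A2 and -0.44 in B1 at day 3, and -0.48 and -0.41 late, but 0.04 and 0.03 in A5. At day 3 and late, but not in EpiLC, the members had their lowest median in A2, both on those 2 chromosomes and elsewhere. Over the 12 tested members on chromosomes 11 and 16 the median difference from WT was 1.82 in A5, 1.19 in B1 and 0.12 in A2 at day 3, and 2.23, 1.83 and 0.80 late. Over the 23 elsewhere it was 0.66, 0.52 and -0.36 at day 3, and 1.35, 1.08 and 0.47 late. The gap between A2 and each other line was thus wider on chromosomes 11 and 16 at both times. The part of the chromosome differences in these gaps was not tested. With scaling done within each chromosome, 23 members were called higher and 2 lower late, and 11 and 1 at day 3.

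**Figure D4:**
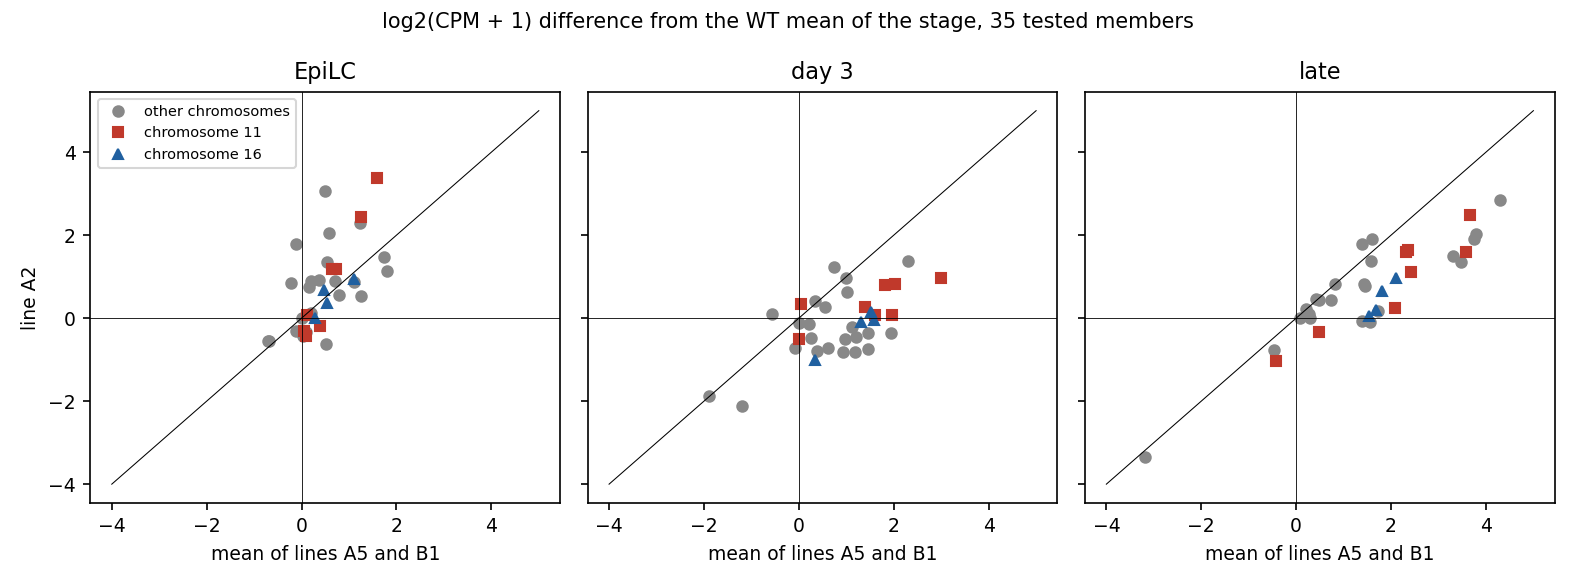
Difference from the WT mean of the stage on the log2(CPM + 1) scale, for the mean of lines A5 and B1 (x axis) and for line A2 (y axis), for 35 tested members at each stage, with members on chromosomes 11 and 16 marked and a line of equal difference. Most points lie under the line at day 3 and late, on all 3 kinds of chromosome.

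In EpiLC fewer members were called, and the difference of the KO effect between EpiLC and day 3 is tested further on. Called higher were 3 of 35 (6.92% of tested genes) and none lower (4.15%), which is near the background, and the median log2 fold change was 0.59. At an unadjusted p under 0.05, 14 were higher and 1 lower (29.3% of all tested genes passed it), and DESeq2 called 7 higher and none lower. Every KO library lay above every WT library for 15 of the 35, against 20% of tested genes. B2m stood at 14.4, 12.9 and 16.8 CPM in WT and at 25.4, 19.5 and 64.0 CPM in KO EpiLC (1.27, SE 0.36, adjusted p = 0.034, edgeR). Xaf1 stood at 1.27, 0.00 and 0.50 CPM against 4.47, 2.79 and 14.6 CPM (3.56, SE 0.89, adjusted p = 0.023). Ifih1 was at 0 counts in WT and 28 in KO libraries, at least 9.05-fold higher (adjusted p = 0.038). In all 3 genes the highest value came from the library labelled KO A2. Without that library none of the 3 calls remained, nor did any without any 1 of the WT libraries. With all libraries of line A2 left out, at every stage, 10 members were called higher and 1 lower in EpiLC (13.8% of all tested genes were called). There Ifih1 and Xaf1 stayed called and B2m did not (adjusted p = 0.073, edgeR). Gbp2, at 17.0, 9.52 and 14.1 CPM in WT and 57.4, 40.6 and 30.0 CPM in KO cells, did not overlap but missed the threshold (adjusted p = 0.066). Ddx58 lay below WT in every KO library, at 54.8, 29.7 and 44.1 CPM against 71.2, 63.1 and 62.0 CPM (adjusted p = 0.13).

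From unsorted EpiLC to sorted day 3 PGCLC, members went both ways in WT cells. Of 35, 13 rose (29% of tested genes) and 6 fell (28.5%). Together 54.3% of the members were called, against 57.5% of all tested genes, which is at the background, and the median log2 fold change was 0.66. All 3 tested transcription factors, Irf1, Irf9 and Stat2, rose. Irf1 rose by 0.84 (SE 0.28, adjusted p = 0.018, edgeR). Irf9 went from 7.34, 7.85 and 7.28 CPM to 23.1, 22.1 and 21.2 CPM (1.50, SE 0.25, adjusted p = 9.46e-05, edgeR). Stat2 went from 39.5, 32.6 and 29.1 CPM to 72.0, 71.1 and 69.2 CPM (1.01, SE 0.11). The ubiquitin ligase Trim25 went from 163, 150 and 140 CPM to 334, 306 and 320 CPM (1.02, SE 0.16). No EpiLC library reached a day 3 library in Irf9, Stat2 or Trim25. Rtp4, Usp18, Oas1h, Ifih1 and Isg15 were at 0 counts in WT EpiLC and at least 20.8, 13.5, 11.4, 6.73 and 4.68-fold higher at day 3. Usp18, which removes Isg15 from proteins and restrains the receptor, was again at 0 counts in late WT cells. The falls were Adar (-0.59, SE 0.11), Ddx58 (-0.82, SE 0.28), Ifit2 (-1.83, SE 0.56), Igtp (-1.01, SE 0.40), Psmb9 (-0.85, SE 0.34) and Samd9l, from 15 counts to 1. The call of Ddx58 was lost without EpiLC 1 or day 3 replicate 2 or 3, and that of Irf1 without EpiLC 2 or 3. Igtp was lost without any 1 of the 6 libraries but day 3 replicate 1, Psmb9 without any 1 but EpiLC 2 or 3, and Samd9l without any 1 but EpiLC 3.

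KO cells took the same step with 16 members higher (20.6%) and 2 lower (21.4%), and a median of 1.01. Irf1 went from 71.5, 42.4 and 75.8 CPM to 214, 224 and 107 CPM (1.52, SE 0.27, adjusted p = 3.57e-04, edgeR). Stat2 rose by 1.01 (SE 0.11) and Trim25 by 1.01 (SE 0.16), while Ifit2 fell by 2.33 (SE 0.59). The calls of Irf1, Stat2, Trim25, Oas1a and Ifit2 held in every alternative that was run, and the other 13 did not. Leaving out the day 3 library of A5 ended the calls of Bst2, Dtx3l, Gbp3, Lgals3bp, Parp9, Parp14, Psmb8, Rtp4 and Zbp1, and leaving out that of B1 those of Gbp3, Lgals3bp, Psmb8, Rsad2 and Zbp1. Without EpiLC A5 or EpiLC B1 the calls of Gbp3, Lgals3bp, Psmb8 and Zbp1 were lost, without EpiLC A2 those of Psmb8 and Rsad2, and without day 3 A2 that of Rsad2. Since the KO line names pair the libraries, the fit with a replicate block bears on this step, and there Gbp3, Lgals3bp and Rsad2 lost their calls while the count stayed at 18. The difference of the step between KO and WT passed the test in 1 member (6.59% of all tested genes did). That was Ddx58, which fell in WT and stood at 54.8, 29.7 and 44.1 CPM in KO EpiLC and 87.1, 80.8 and 32.5 CPM at day 3 (interaction 1.47, SE 0.39, adjusted p = 0.036). With the block 4 passed, namely Ddx58, Adar, Ifi35 and Rtp4. Without KO day 3 A5, KO day 3 B1, any 1 of the WT EpiLC libraries, or WT day 3 replicate 2 or 3, the Ddx58 call was lost. All steps to or from day 3 share the day 3 libraries with the comparison of KO and WT at day 3.

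Between day 3 and late PGCLC, most members stood lower in WT cells, but few passed the test. The median log2 fold change was -0.56, and 28 of 35 fitted values were not above 0. Only Rtp4 was called lower (0.482% of tested genes) and none higher (0.288%). Rtp4 went from 4.82, 3.97 and 6.83 CPM to 0.20, 0.61 and 0.47 CPM (-3.54, SE 0.75, adjusted p = 0.047, edgeR), and its call was lost without any 1 of the 6 libraries. At an unadjusted p under 0.05, 18 members were lower and 1 higher (13.9% of all tested genes passed it), and DESeq2 called 6 lower and 1 higher. A fit of these WT libraries alone called 17 lower and 2 higher. Gbp2 went from 10.1, 11.7 and 9.56 CPM to 1.22, 1.22 and 1.42 CPM (-3.03, SE 0.78, adjusted p = 0.079). Psmb8 went from 6.26, 6.05 and 6.83 CPM to 0.82, 1.22 and 0.47 CPM (-2.89, SE 0.65, adjusted p = 0.050). Neither pair of groups overlapped.

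In KO cells the median over the same interval was -0.06, with none called higher (0.366%) or lower (0.187%). At an unadjusted p under 0.05, 1 was higher and none lower (12.3% of all tested genes passed it), and DESeq2 called none. Without line A2, Zbp1 was called higher and B2m, Bst2 and Trim25 lower. The paired fit with the replicate block called Trim25 lower. Gbp2 stood at 40.1, 22.8 and 5.79 CPM at day 3 and 45.0, 20.8 and 8.38 CPM late (0.04, SE 0.53, adjusted p = 0.99, edgeR). Psmb8 stood at 16.8, 22.1 and 4.79 CPM and at 15.0, 19.2 and 4.09 CPM (-0.22, SE 0.46). The difference of this step between the genotypes passed the test for no member and for 0% of all tested genes. At an unadjusted p under 0.05, 8 members differed, all 8 with a higher value in KO (4.36% of all tested genes passed it), and DESeq2 called none. The larger number of calls late than at day 3 is therefore not shown to be a change of the KO effect between the times. Without line A2, 5 members passed this interaction (Gbp3, Irgm1, Psmb8 and Zbp1 higher, Trim25 lower).

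Set per length of exon, the members differed widely in level. In late WT cells Bst2 had the highest mean, at 91.1 CPM per kb of exon, followed by Trim25 at 64.4 and Irf1 at 12.9. In late KO cells the order was Bst2 at 123, Irf1 at 56.7 and Trim25 at 42.6. The 7 members not tested were low, at most 3.70 CPM in any library, which some tested members such as Isg15 (at most 4.29 CPM) hardly exceeded. Ifit3 and Ifi44 had 1 count in all 18 libraries, Mx1 had 16, Mx2 18, Ifit1 25, Irf7 60 and Cmpk2 104.

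The genes that act before the members were read from separate lists. All 18 interferon ligands of the table, Ifnb1 and Ifng among them, were at 0 counts in all 18 libraries. Ifnar1 had a mean of 61.2 ± 5.42 CPM in WT and 61.1 ± 12.8 CPM in KO cells (SD, n = 3), and no receptor gene was called in late cells. Of 14 tested sensors and adaptors 4 rose late and none fell (28.6%, against 17.5% of all tested genes called either way). Among them Tmem173, which encodes STING, stood at 0.41, 0.61 and 0.00 CPM in WT and 2.95, 2.62 and 3.27 CPM in KO cells (2.96, SE 0.61). The other 3 were Samhd1 (1.12, SE 0.14), Irf3 (0.47, SE 0.14) and Tbk1 (0.40, SE 0.12). Of 13 negative regulators Ptpn6 (0.59, SE 0.19) and Pias1 (0.52, SE 0.13) rose. That is 15.4% of this list, against 17.5% of all tested genes, which is near the background.

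Some further antigen presentation genes rose as the members did. Of 15 tested 7 rose late and none fell, and the same counts held at day 3. These are 46.7% of the list, against 17.5% of all tested genes called either way late and 10.2% at day 3. The largest late rises were Erap1, which trims peptides, at 2.34 (SE 0.42), Tap2 at 2.15 (SE 0.39), Psmb10 at 1.66 (SE 0.30) and H2-Q4 at 1.46 (SE 0.19). The whole list summed to 2938 to 3077 CPM in late WT and 3161, 3110 and 2443 CPM in late A5, B1 and A2. At day 3 the sums were 2655 to 2751 CPM in WT and 2836, 2882 and 2153 CPM in these lines. In this sum A2 lay below every WT library at both times. Of 40 other interferon-stimulated genes that were tested 20 rose late and 1 fell, with 9 and 1 at day 3 and 7 and 1 in EpiLC. Called either way were thus 52.5%, 25% and 20% of this list, against 17.5%, 10.2% and 11.1% of all tested genes. In late cells, the following changes were seen. Slfn9 rose by 2.70 (SE 0.23), Gbp7 by 4.21 (SE 0.77) and Ddx60 by 3.23 (SE 0.59), and Trim30a, at 0 counts in WT, was at least 12.8-fold higher. The fall was Ube2l6, the E2 enzyme that conjugates Isg15, at 24.9, 18.5 and 18.4 CPM in WT and 5.65, 6.77 and 2.45 CPM in KO cells (-2.06, SE 0.34, adjusted p = 6.13e-04, edgeR), named after its values were seen.

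Other marker lists were set beside these rises. In late cells 10 genes of sorting or dissociation stress summed to 357 to 437 CPM in WT and 651, 667 and 661 CPM in the KO lines, and at day 3 to 374 to 375 CPM and 581, 663 and 728 CPM. Of 9 tested 3 rose at both times (Egr1, Fos and Ier2). That is 33.3%, against 17.5% of all tested genes called either way late and 10.2% at day 3. Of the KO lines, A2 had the highest stress sum at day 3, and late the lines lay close together. The part of these stress genes in the members' rise was not tested. The 8 blood and macrophage markers summed to 39.8 to 55.0 CPM in late WT cells and 81.6, 78.6 and 37.8 CPM in late KO cells, nearly all of it Cd68, at 72.8, 73.4 and 33.5 CPM in KO cells, while Lyz2 was at 0 in every library and Ptprc in every PGCLC library. The 12 mesenchyme markers summed to 11.8 to 16.6 CPM in late WT and 32.2, 34.9 and 104 CPM in late KO cells, highest in A2. The 6 endothelial markers summed to 301 to 327 CPM in late WT and 437, 441 and 260 CPM in late KO cells, mostly Pecam1, which germ cells also express, and among the 4 tested only Cldn5 rose (1.21, SE 0.37, adjusted p = 0.034, edgeR). Like the members, the blood and the endothelial sums were higher in A5 and B1 than in A2. The part of these lists in the result was not tested.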

How the data were processed

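The authors deposited whole-number counts by Ensembl gene ID, 1 file a library, and a series table of CPM. Dividing the counts by their library totals gave those CPM back within 1e-06. The submitters' processing notes name Trim Galore 0.4.3.1 and the builds mm10 and GRCm38.p4. Aligner, counter, annotation and strandedness were not given in the sources used here. Rows with no gene ID (56, at most 0.0828% of a library) were left out. Positions are from GENCODE M21.

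Counts were fitted with edgeR 4.0.16 in R 4.3.3 (TMM, filterByExpr, a mean for each of 6 groups, robust quasi-likelihood) and called at a Benjamini-Hochberg adjusted p under 0.05 over the 12856 tested genes of each of 9 comparisons. The method was tested on simulated data. These gave all libraries the same spread and held no differences between lines or chromosomes, so the simulation does not cover those. A group with 0 counts was given 3 as its floor, summed over its libraries, and groups at 1 to 3 counts are given as a ratio with its exact binomial 95% interval, which covers counting error only. Alternatives were RLE factors, TMM within each chromosome, no filter, DESeq2 1.42.0, limma-trend (limma 3.58.1) on log2(CPM + 1), the groups compared alone, each library left out, line A2 left out and a replicate block; leaving out lines A5 and B1 was chosen after seeing the data. KO line names, which mark the same cell line, paired libraries (correlation of deviations from the group mean above 0.1 in 9 of 9 pairs, 0.111 to 0.588), while WT numbers did not (-0.048 to 0.066). Any member could be named, as could up to 4 called genes of each related list by size of change. The members and lists were chosen with earlier results of these data known. Results of 1 gene of a related list are not reported here.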

Additional observations from a re-analysis of the deposited data

Results flagged for a closer look

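The step from EpiLC to day 3 differed between genotypes for Ddx58, with an interaction of 1.467 on the log2 scale by edgeR's test of the difference. In WT cells the group mean went from 65.4 to 38.4 CPM and in KO cells from 42.9 to 66.8 CPM. At day 3 the rise was in lines A5 and B1, while A2 at 32.5 CPM lay just below the lowest WT library at 32.54 CPM.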

How the results depend on the processing

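No called member changed direction under any alternative run. Of 1070 values of called members under the alternatives, 876 kept the call and 194 lost it. The late KO call count was 16 to 29 against 23, within 1.5 times, and 15 of the 23 members were called in every alternative. In EpiLC (3 called) DESeq2 called 7, scaling within chromosomes 6, the groups compared alone 0, no line A2 11, no line A5 7 and no line B1 5, and single libraries left out 0 to 6. At day 3 (8) no filter called 5, no line A2 23, and single libraries left out 5 to 14. For the KO step to day 3 (18) no line B1 called 9, the groups compared alone 5, and single libraries left out 11 to 23. For the late WT step (1) DESeq2 called 7, limma-trend 5, the groups compared alone 19, RLE factors 2, chromosome scaling 2 and single libraries left out 0. For the first interaction (1) DESeq2 called 3, no filter 0, no line A2 7, the groups compared alone 0, RLE factors 2, chromosome scaling 3, and single libraries left out 0 to 2. For the second (0) no line A2 called 5, and for the late KO step (0) no line A2 called 4 and single libraries left out 0 to 1. With the replicate block the paired fit called 23 of the WT step to day 3 (19), 5 of the late WT step, 1 of the late KO step, 4 of the first interaction and 0 of the second. WT numbers do not pair libraries, so the block on WT steps is only a check. The causes were not tested.

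At 3032965 to 5286330 counts a library, members under about 1 CPM rest on few counts, 7 members did not pass the filter on low counts, and folds against near-empty groups are bounds or wide ratios.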
